A study of Mus musculus with 17 samples.

Results

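The kidney neutrophils described here were found among sorted kidney cells by their RNA alone. A kept cell had at least 200 detected genes and at most 20% of its unique molecular identifiers (UMIs, counted RNA molecules) from mitochondrial genes. A kept cell was called a neutrophil when it held at least 20 UMIs of the alarmin genes S100a8 and S100a9 summed, at least 1 UMI of the neutrophil receptor genes Csf3r and Cxcr2 or the secreted protein gene Retnlg, and at most 1 UMI of the macrophage genes C1qa, C1qb and C1qc. This gave 1496 neutrophils among 61744 kept kidney cells in 9 libraries, and the whole series held 91829 kept cells. The same rule found 1759 neutrophils among 30085 kept skin cells of 8 libraries, which came from WT and SARATg mice given PBS or bleomycin.

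Neutrophils are short-lived granulocytes made in the bone marrow, and they carry ready-made proteases and antimicrobial proteins in granules. Primary granule genes (Mpo, Elane, Prtn3, Ctsg) are transcribed in early precursors, secondary and tertiary granule genes (Camp, Ngp, Ltf, then Mmp8, Mmp9) in later precursors, and the mature cell in blood or tissue has largely stopped transcribing them. A neutrophil that meets an inflammatory signal instead transcribes cytokines and chemokines through NF-κB, together with the inhibitors that shut NF-κB down again, such as Nfkbia and Tnfaip3.

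The mice were 8 weeks old, and every group carried PDGFRb-Cre and the Z/EG reporter, so that cells with past or present Cre activity were green and were sorted as PDGFRb+GFP+. SARATg mice also carried a human SARA (ZFYVE9) cDNA in Rosa26 behind a stop cassette that Cre removes, and SARAWT (WT) mice did not. The Pdgfrb promoter drives Cre in pericytes and also in leukocytes, so the transgene was not restricted to pericytes and the green sort gate admitted blood cells. Kidneys came from 3 WT vehicle libraries, 3 WT libraries from mice given aristolochic acid (AA, a plant nephrotoxin that injures the proximal tubule), 2 SARATg vehicle libraries and 1 SARATg AA library. AA was injected intraperitoneally at 5 mg/kg, 3 times a week for 3 weeks, and vehicle mice received vehicle by the same route. The skin libraries were 3 WT PBS, 3 WT bleomycin, 1 SARATg PBS and 1 SARATg bleomycin (20 mg/kg, 3 times a week for 2 weeks), and only those of WT mice injected subcutaneously with PBS served for comparison. The labels do not say whether a library pooled mice, so a p-value here measures the spread between libraries.

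The 9 kidney libraries held 28660151 to 137093834 UMIs each and 14 to 502 neutrophils each. As an indirect check of genotype, mouse Zfyve9 over all kept cells stood at 100.3 and 96.3 CPM (counts scaled to 1 common library total) in the SARATg vehicle libraries and at 10.4 to 32.0 CPM in the WT vehicle libraries. Against their labels, the library labelled WT AA 1 stood at 163 CPM, the library labelled SARATg AA 1 at 20.6 CPM and the skin library labelled WT PBS 3 at 620.2 CPM. Counts of called genes, shares and most gene lists are also given without WT AA 1 or skin WT PBS 3. Xist stood at 1410 CPM in WT vehicle 2 and 1355 CPM in SARATg AA 1, and at no more than 0.502 CPM in the other 7 kidney libraries. In all, 20 of the 1496 neutrophils had a cell barcode that also occurred in another library.

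The promoters of 4 genes are shown because the comparison with skin below turns on genes that NF-κB is known to switch on, set beside a granule gene. The 250 bases before 1 annotated start of each gene are shown 5′ to 3′ on the gene's own strand, from RefSeq on GRCm38.p6. For Camp this start lies inside the gene span given further below, so the window overlaps that span. Capitals mark matches on either strand to a κB-like motif, which is GGG, any pair of bases, TT, any base and CC. Cxcl2 (a chemokine that draws neutrophils, chr5:90903649-90903898, plus strand) held 2 matches, starting at -97 and -78. Nfkbia (the NF-κB inhibitor IκBα, chr12:55492648-55492897, minus strand) held 1 match at -29, on the opposite strand, while Tnf (an inflammatory cytokine, chr17:35202008-35202257, minus strand) and Camp (the cathelicidin of secondary granules, chr9:109849457-109849706, minus strand) held none. Ccl3, Il1b, Icam1, Nfkbie, Ier3 and Birc3 held none in this window either.
Cxcl2: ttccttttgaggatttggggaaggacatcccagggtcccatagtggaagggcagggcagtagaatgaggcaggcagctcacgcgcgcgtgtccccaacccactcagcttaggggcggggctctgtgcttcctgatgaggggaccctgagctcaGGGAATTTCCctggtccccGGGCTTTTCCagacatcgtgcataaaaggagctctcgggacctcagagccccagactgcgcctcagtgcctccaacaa
Nfkbia: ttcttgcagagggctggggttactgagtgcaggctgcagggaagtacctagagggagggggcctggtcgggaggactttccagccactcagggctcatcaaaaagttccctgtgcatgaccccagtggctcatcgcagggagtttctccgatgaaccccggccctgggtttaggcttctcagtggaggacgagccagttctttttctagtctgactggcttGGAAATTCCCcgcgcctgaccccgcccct
Tnf: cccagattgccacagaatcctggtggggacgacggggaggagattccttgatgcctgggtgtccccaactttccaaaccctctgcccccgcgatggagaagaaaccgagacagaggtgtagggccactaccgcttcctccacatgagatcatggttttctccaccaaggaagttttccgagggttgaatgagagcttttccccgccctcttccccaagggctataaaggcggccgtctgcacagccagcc
Camp: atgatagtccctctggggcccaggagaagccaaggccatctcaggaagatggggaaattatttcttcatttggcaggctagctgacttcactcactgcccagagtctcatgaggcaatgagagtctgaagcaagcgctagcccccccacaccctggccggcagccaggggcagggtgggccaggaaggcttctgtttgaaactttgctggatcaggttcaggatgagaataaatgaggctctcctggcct
The motif occurred in 1082 of 27025 mouse promoters of this length (4.0%). It occurred in 5 of 19 promoters of the list of NF-κB feedback and subunit genes (Tnfaip3, Rel, Tnip1, Nfkbia and Nfkb2), in 7 of 21 of the chemokine and cytokine list, in 1 of 11 of the secondary granule list (Pglyrp1) and in 0 of 19 of the immediate early list. A match says only that these letters are present.

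The median kidney neutrophil held 2491.5 UMIs, 884.5 detected genes and 257 UMIs of S100a8 and S100a9. Csf3r was detected in 94.4% of the cells, Cxcr2 in 90.5% and Retnlg in 88.6%. Few cells lay near the alarmin threshold, with 36 members at 20 to 24 UMIs and 29 cells at 15 to 19 UMIs that met the other criteria. The C1q criterion alone removed 96 cells and the receptor criterion alone removed 9. The members were chosen by these values, which are given as a description only.

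Genes that the rule did not use also fitted the label. Ly6g, the classical surface marker of mouse neutrophils, was higher in neutrophils than in the other kept cells in 7 of 9 libraries, with a median ratio of 238, and had 0 UMIs in the neutrophils of WT AA 2 and WT AA 3, which held 27 and 14 cells. Trem1, an activating receptor of neutrophils and monocytes, had a median ratio of 94.3. Among genes with a mean of at least 200 CPM, the largest median ratios over the other kidney cells belonged to Gm5483 and Stfa2l1 (stefin family, 899.9 and 376), Wfdc21 (309), the granule genes Camp (289.9), Ltf (287) and Ngp (274, and 0, 0 and 34.8 for these 3 in members with at most 5000 UMIs), the cystine transporter Slc7a11 (138), the gelatinase Mmp9 (113) and the cytokine Il1b (91.3). The genes of this ranking were picked by that ratio and by their level in the neutrophils. Their ratios are therefore a description and do not bear on the label. Reads of the near-identical stefin genes can be split between copies, so their separate values are uncertain. Markers of eosinophils, basophils and mast cells held 0.00245% of UMIs in members with at most 5000 UMIs and 0.000949% in deeper members.

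After the 2 alarmins (S100a9 35267 ± 10895 CPM and S100a8 24180 ± 8807 CPM, SD, n = 9 libraries) the most abundant RNAs with a known immune role were Retnlg at 4690 CPM, the lysozyme gene Lyz2 at 4122 CPM, Il1b at 3573 ± 1122 CPM and the signalling adaptor Tyrobp at 3239 CPM. The same top 20 held RNAs of other cells. Kap, a proximal tubule gene, reached 6515 CPM on average with a range of 0 to 20100, the tubule-secreted Gpx3 reached 3156 CPM, and the immunoglobulin light chain Igkc reached 4623 CPM with a range of 31.3 to 23514. Pdgfrb, whose promoter defined the sort, averaged 0.651 CPM in the neutrophils, and the leukocyte gene Ptprc averaged 1010 CPM.

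Over all kidney neutrophils together, RNA of tubule cells, macrophages and lymphocytes made up more of the deepest members. Of the 1496 neutrophils, 513 (34.3%) held more than 5000 UMIs, with a median of 11375, and the other 983 had a median of 1875. Tubule marker genes gave a median of 157 UMIs in the deep cells and 1 UMI in the others, and macrophage marker genes gave 15 and 1 UMIs. Tubule markers were 2.48% of UMIs in deep cells and 0.131% in the others, macrophage markers 0.439% and 0.107%, and lymphocyte markers 0.427% and 0.0485%. Red cell and platelet markers went the other way, at 0.00106% and 0.177%, but the latter rested on SARATg vehicle 2 (0.442%), with at most 0.0183% in shallow cells of the other 8 libraries. The lymphocyte value of deep cells rested on WT vehicle 1 (2.92%) and WT AA 1 (2.18%), with at most 0.258% in the other libraries. In WT AA 2 lymphocyte markers were 0.0300% in deep and 0.0372% in shallow cells. In WT AA 3 tubule markers were 0.0277% in deep and 0.134% in shallow cells. The deep cells were 22.2% to 55.0% of the neutrophils of a library but carried 66.6% to 89.6% of their summed UMIs, so library sums mostly read these cells. The part of RNA from other cells, or of droplets with more than 1 cell, was not tested. Tests between groups were therefore run for all members and for members with at most 5000 UMIs, called shallow members below. That limit was set after these values were seen.

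**Figure D1:**
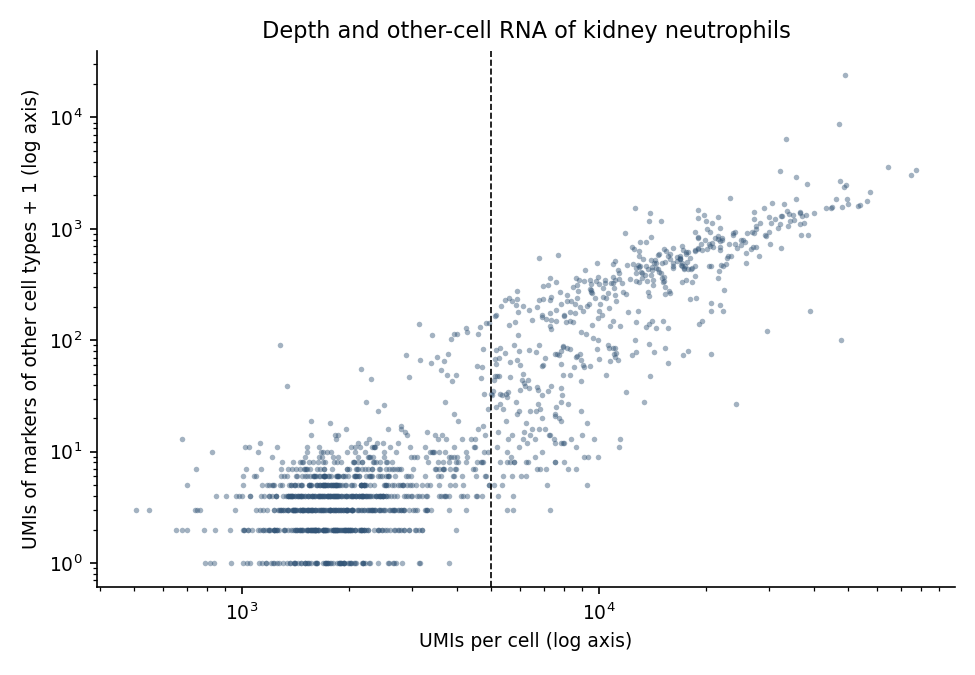
Each point is 1 of the 1496 kidney neutrophils, with its UMIs on the x axis (log axis) and its summed UMIs of the tubule, macrophage and lymphocyte marker lists plus 1 on the y axis (log axis). Cells right of 5000 UMIs carried many more of these UMIs, with a tubule median of 157 against 1.

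The share of neutrophils varied widely within groups. In WT vehicle kidneys it was 0.453% of kept cells (95% exact binomial interval 0.324 to 0.617), 3.47% (3.12 to 3.85) and 2.92% (2.54 to 3.35). After AA it was 3.25% (2.86 to 3.69), 0.674% (0.445 to 0.980) and 0.265% (0.145 to 0.443). The highest of these 6 values came from a vehicle library and the lowest from an AA library, and the groups overlapped. The AA mean was 1.40% ± 1.62 (SD, n = 3) against 2.28% ± 1.61 (n = 3), a difference of -0.885 percentage points (exact permutation test, two-sided, p = 0.7, where 0.1 is the smallest p that 3 against 3 allow). Without WT AA 1 it was -1.81 points (exact permutation test, p = 0.3). As a share of leukocytes, taken as cells with a Ptprc UMI and all neutrophils, the means were 1.75% after AA and 8.74% in vehicle, a difference of -6.99 points (exact permutation test, p = 0.2). The vehicle mean rested on WT vehicle 2, at 19.2% against 3.13% and 3.88% in the other 2, and without it the difference was -1.75 points (exact permutation test, p = 0.3). Without WT AA 1 it was -8.04 points. Intervals cover counting error only.

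SARATg vehicle kidneys held 0.959% (0.727 to 1.24) and 8.41% neutrophils (7.72 to 9.14), the latter the highest of the 5 vehicle libraries and the former within the WT vehicle range. Their mean was 4.68% ± 5.27 (SD, n = 2), 2.40 percentage points above WT vehicle (exact permutation test, two-sided, p = 0.5, smallest possible 0.1). Without SARATg vehicle 2 the difference turned to -1.32 points, and as a share of leukocytes it was near 0, at -0.0203 points. The single SARATg AA library held 0.892% (0.691 to 1.13). Sorted cells differed in make-up as well, since Ptprc-positive cells were 14.5%, 18.0% and 75.2% of WT vehicle libraries, 62.0% to 84.7% of WT AA libraries and 52.8% and 53.4% of SARATg vehicle libraries. The part of this difference in the shares was not tested.

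**Figure D2:**
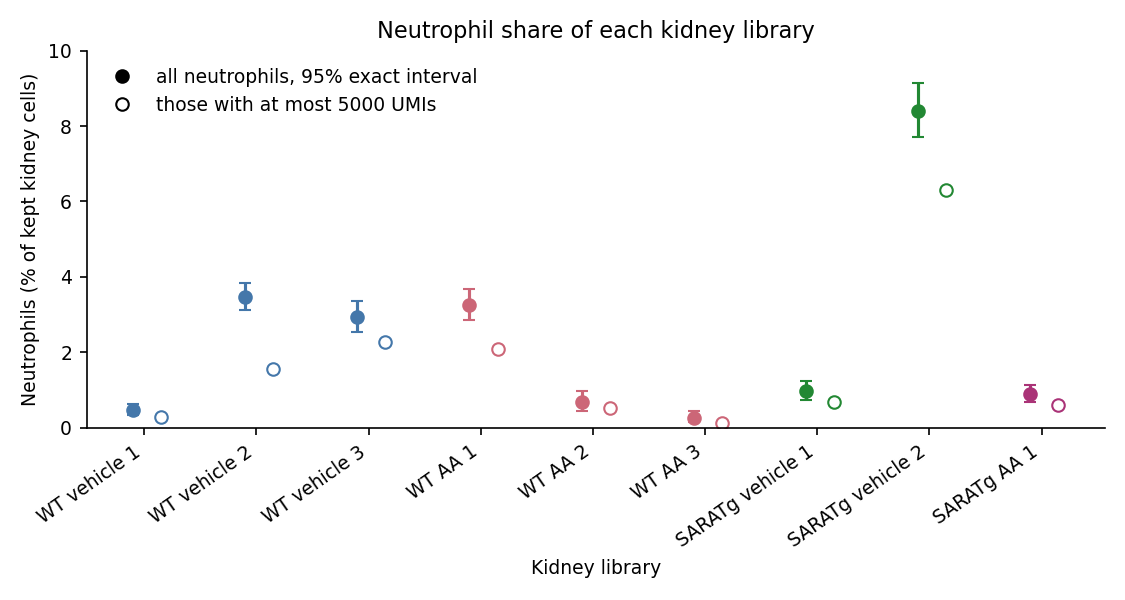
Filled points give neutrophils as a percent of kept cells in each of the 9 kidney libraries with the 95% exact binomial interval, and open points give the same for neutrophils with at most 5000 UMIs. Shares ran from 0.265% (WT AA 3) to 8.41% (SARATg vehicle 2), and within the WT vehicle, WT AA and SARATg vehicle groups the interval of at least 1 library lay apart from the others.

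Secondary granule RNA was concentrated in a minority of cells. Its 3 genes Camp (chr9:109847379-109849617), Ngp (chr9:110419747-110423012) and Ltf (chr9:111019271-111042767, all GRCm38) lie on the same chromosome. The 182 neutrophils with at least 5 UMIs of Camp, Ngp (neutrophilic granule protein) and Ltf (lactoferrin) summed held 99.4% of all UMIs of these genes in kidney neutrophils. They were 127 of 502 cells in SARATg vehicle 2 (25.3%, 95% exact interval 21.6 to 29.3), 41 of 349 in WT vehicle 2 (11.7%, 8.56 to 15.6) and 5 of 40 in WT vehicle 1 (12.5%, 4.19 to 26.8). In WT vehicle 3 they were 0 of 203 cells, which allows a share of up to 1.48% by the limit of 3 counts of the total that is used here for every 0. WT AA libraries held 6 of 238 (2.52%), 0 of 27 (a share of up to 11.1%) and 0 of 14 cells (a share of up to 21.4%). SARATg vehicle 1 held 1 of 57 and SARATg AA 1 held 2 of 66. The 8 skin libraries of all treatments and genotypes held 0 to 5 such cells each.

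Depth moved with this class. Among shallow members, 76 of 377 cells in SARATg vehicle 2, 7 of 157 in WT vehicle 2 and 2 of 153 in WT AA 1 met it, and none in the other 6 kidney libraries. To compare libraries at equal depth, every cell was thinned to 500 UMIs, and a UMI of Camp, Ngp or Ltf was then seen in 12.5%, 11.5% and 1.48% of WT vehicle neutrophils and in 4.62%, 0% and 0% of WT AA neutrophils. Tubule cells, which should lack these genes, gave at most 0.114%. The AA minus vehicle difference was -6.94 percentage points (exact permutation test, two-sided, p = 0.2, adjusted p = 0.6 over 4 gene groups), and among shallow members it was -0.380 points (p = 1.0, exact permutation test). Without WT AA 1 these were -8.48 points and -2.12 points (exact permutation test, p = 0.2 and 0.7).

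Cells with granule RNA also differed in other genes within a library. In SARATg vehicle 2, after thinning to 500 UMIs, the 141 cells with a Camp, Ngp or Ltf UMI had Mmp8 (neutrophil collagenase) in 52.5%, Lcn2 (lipocalin-2) in 88.7% and Ly6g in 19.1%, and the 361 cells without had them in 13.9%, 48.5% and 3.60%. Il1b or Cxcl2 went the other way, at 44.0% against 80.6%. WT vehicle 2 showed the same order, with Mmp8 in 42.5% of 40 cells against 10.7% of 309 cells, Lcn2 in 95% against 32.4%, Ly6g in 37.5% against 4.21%, and Il1b or Cxcl2 in 45% against 81.6%. The other libraries held 0 to 11 such cells each. In WT AA 1 Mmp8 was seen in 45.5% of 11 cells against 18.1% of 227, but in WT vehicle 3 in 0% of 3 cells against 22.5% of 200, with Il1b or Cxcl2 in 100% against 85.5%, so the order was not the same in every library. These are descriptions of cells within libraries, without a test. Before thinning, the cells with granule UMIs were deeper, with medians of 3291 and 8163 UMIs against 1992 and 5769. Primary granule genes came to 5 UMIs or more in 1 kidney neutrophil, a cell of SARATg vehicle 2 with 47601 UMIs in all, among them 130 of Mpo, 376 of Elane, 397 of Prtn3 and 165 of Ctsg.

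**Figure D3:**
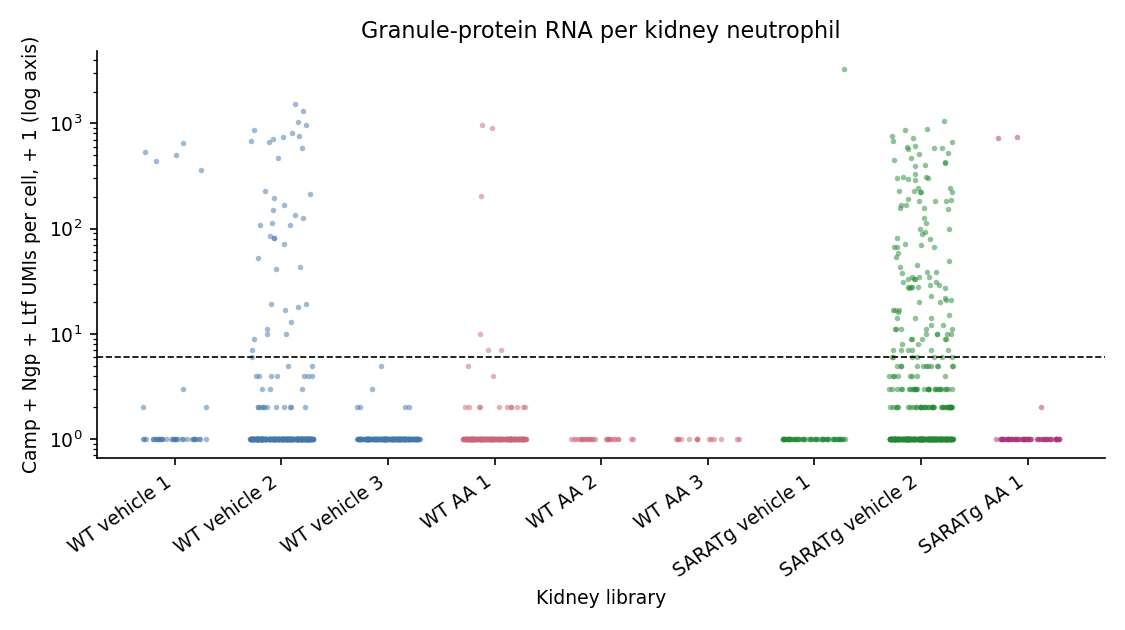
Each point is 1 kidney neutrophil, with the summed UMIs of Camp, Ngp and Ltf plus 1 on a log axis, by library, and the dashed line marks 5 UMIs. Cells above the line were 127 of 502 in SARATg vehicle 2 and 41 of 349 in WT vehicle 2 but 0 of 203 in WT vehicle 3.

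The question of what AA changed in kidney neutrophils was asked on UMIs summed per library. In the 3 against 3 WT libraries, 0 of 7581 genes passed an edgeR adjusted p of 0.05 (0% called). Before adjustment 398 genes had p under 0.05, and 2 genes passed in DESeq2, Ccl3 and the immunoglobulin segment Igkv4-57-1. Leaving out WT AA 1, or any other of these 6 libraries, also gave 0 in edgeR. Among shallow members 0 of 3820 passed (0%), with 79 at an unadjusted p under 0.05, in a fit that left out WT AA 3 because it held 7 shallow neutrophils and a library needed 10. The differences below were therefore not distinguishable from the spread between libraries, which the edgeR test across all genes weighs.

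Ccl3, a chemokine of activated myeloid cells, stood at 44.4, 17.3 and 63.9 CPM in WT vehicle and at 183, 293.6 and 806 CPM in WT AA. Its log2 difference was 3.12 ± 0.63 (SE, edgeR adjusted p = 0.83). Tnf stood at 4.44, 4.54 and 16.5 CPM and at 30.2, 51.4 and 117 CPM, with a log2 difference of 2.54 ± 0.69 (edgeR adjusted p = 0.83). In shallow members the log2 differences were 2.63 ± 0.76 for Ccl3 and 1.58 ± 0.99 for Tnf, and in all members without WT AA 1 they were 3.51 ± 0.64 and 3.02 ± 0.76 (edgeR adjusted p = 0.90 for both). Il1b (0.24 ± 0.32) and Cxcl2 (0.18 ± 0.60) lay near 0 on the log2 scale in all members and at -0.16 ± 0.36 and -1.08 ± 0.74 in shallow ones. Nr4a1, an immediate early nuclear receptor, had a log2 difference of 1.68 ± 0.41 in all members and 0.41 ± 0.60 in shallow members.

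By list, 21 of 22 tested NF-κB feedback genes had a positive AA minus vehicle difference with a median log2 difference of 0.77, and 18 of 20 immediate early genes had one with a median of 0.67, beside a median of -0.06 over all genes. In shallow members these were 13 of 18 with a median of 0.35 and 17 of 19 with a median of 0.41, beside -0.03. Other lists leaned the same way in all members, with 15 of 15 MHC class I genes positive (median 0.67), 35 of 41 receptors and adhesion molecules (median 0.38), 14 of 19 survival genes (median 0.68) and 15 of 22 cytokines and chemokines (median 0.69). In shallow members these were 9 of 13, 25 of 40, 9 of 16 and 9 of 18. Without WT AA 1 they were 13 of 15 (median 0.72), 26 of 40 (0.23), 14 of 19 (0.47) and 14 of 22 (0.31). Other lists did not lean this way in all members. The heat shock list had 3 of 11 positive (median -0.51), iron and redox 6 of 16 (-0.26) and hypoxia and glycolysis 8 of 25 (-0.18). Neutrophil identity had 17 of 33 (0.01). No member of these lists passed the test. Over all genes 3497 of 7581 were positive in all members and 1818 of 3820 in shallow members. The summed NF-κB feedback list overlapped between the groups, at 1941, 1499 and 3706 CPM in WT vehicle against 3750, 3311 and 6177 CPM in WT AA. It also overlapped in shallow members, at 4371, 3546 and 6095 CPM against 5835, 7557 and 11406 CPM. The summed immediate early list stood at 9865, 7210 and 11099 CPM against 12001, 15763 and 14744 CPM, and overlapped in shallow members. The secondary granule list had 1 of 12 positive and a median of -1.15, and 2 of 12 and -0.41 in shallow members. Without WT AA 1 the NF-κB feedback list had 18 of 21 positive (median 1.08), the immediate early list 18 of 20 (median 0.82) and the secondary granule list 0 of 12 (median -1.99), beside -0.13 over all genes. Shallow members without the libraries at odds with their label left WT AA 2 as the only WT AA library, assumed to vary like the others. There the NF-κB feedback list had 13 of 17 positive (median 0.46), the immediate early list 16 of 18 (0.78), the cytokines 12 of 18 (0.30), the receptors 16 of 40 (-0.17) and the granule list 0 of 12 (-1.48), beside -0.14 over all genes.

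Markers of other cells moved between the same libraries. Macrophage markers were positive for 11 of 14 genes (median 0.59) in all members and 5 of 9 (median 0.14) in shallow members, lymphocyte markers for 13 of 15 (median 1.01) and 6 of 6 (median 1.35), and tubule markers for 1 of 15 (median -1.36) and 2 of 11 (median -0.89). In shallow members without the libraries at odds with their label these turned, to 3 of 9 (median -0.87), 0 of 2 and 8 of 11 (median 0.61). Their part in these values was not tested. Interferon-stimulated genes were 26 of 31 positive (median 0.45) in all members but 8 of 26 (median -0.23) in shallow members.

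SARATg and WT vehicle neutrophils were compared in 2 against 3 libraries, and this comparison shares its WT vehicle libraries with that of AA. No gene of 7581 passed the edgeR test (0% called, 184 at an unadjusted p under 0.05, and by DESeq2 the 3 genes Gm4208, Igkv4-57-1 and Hba-a1), and 0 of 3820 passed in shallow members (0% called, 158 at an unadjusted p under 0.05). Cd14, the endotoxin co-receptor, stood at 133, 310 and 729 CPM in WT vehicle and at 25.8 and 88.2 CPM in SARATg vehicle. Its log2 difference was -2.67 ± 0.79 (edgeR adjusted p = 1.0), and -2.46 ± 0.49 in shallow members (edgeR adjusted p = 0.22). Nfkbia stood at 333, 253 and 1310 CPM against 175 and 199 CPM, a log2 difference of -1.74 ± 0.70, and -1.76 ± 0.45 in shallow members (edgeR adjusted p = 0.42). Of the NF-κB feedback list, 17 of 22 genes were negative with a median of -0.72, and 15 of 18 with a median of -0.64 in shallow members, beside all-gene medians of -0.04 and 0.02. The summed level of this list overlapped between the groups, at 1941, 1499 and 3706 CPM in WT vehicle against 1723 and 1438 CPM in SARATg vehicle. In shallow members it overlapped as well, at 4371, 3546 and 6095 CPM against 3844 and 2454 CPM. Macrophage markers were negative for 13 of 14 genes (median -1.49) in all members and 5 of 9 (median -0.02) in shallow members, and their part was not tested. Red cell and platelet genes, 5 of 5 tested positive with a median of 6.74, had a summed level of 4419 CPM in shallow members of SARATg vehicle 2, where 4 of 377 cells held 2 or more such UMIs. In SARATg vehicle 1 it was 36.4 CPM, and in WT vehicle 3.29 to 24.4 CPM, so 1 library carried this difference.

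After thinning to 500 UMIs, a Cd14 UMI was seen in 10.0%, 22.9% and 34.0% of WT vehicle neutrophils, 42.4%, 40.7% and 64.3% of WT AA, 1.75% and 8.96% of SARATg vehicle and 6.06% of SARATg AA neutrophils. In tubule cells of the same libraries it was seen in 0.0471%, 0.511% and 5.42% (WT vehicle), 3.95%, 0.517% and 5.38% (WT AA), 0% and 0% (SARATg vehicle) and 0.629% (SARATg AA), so its background also differed between libraries. The library labelled WT AA 1, whose Zfyve9 level goes against its label, lay with the other WT AA libraries for Cd14. Il1r2, the decoy receptor for interleukin-1, was seen in 48.3% of neutrophils of WT vehicle 3 and in 7.5% and 7.74% of the other 2 WT vehicle libraries. In the neutrophils themselves a Zfyve9 UMI was found, without thinning, in 75.4% and 56.0% of SARATg vehicle cells, 79.4% of WT AA 1 cells, 13.6% of SARATg AA 1 cells and 0% to 28.6% of cells in the other 5 WT libraries.

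Whether AA acted differently in SARATg kidneys rests on 1 SARATg AA library of 66 neutrophils, whose Zfyve9 level goes against its label, and it could not be fitted without it. With 1 library that arm has no spread of its own, and the test assumes that it varies like the other groups. Xist stood at 1355 CPM in SARATg AA 1, at 0.239 and 0.478 CPM in SARATg vehicle and at 0.0444 to 0.276 CPM in WT AA libraries. The Xist difference and the effect of AA in SARATg mice cannot be told apart here. No gene of 7581 passed the edgeR interaction test (0% called), with 179 at an unadjusted p under 0.05 and 0 by DESeq2, and no gene of 3820 in shallow members (0% called), with 145 at an unadjusted p under 0.05. In the immediate early list 18 of 20 interaction estimates were negative, with a median of -1.02 on the log2 scale beside 0.03 over all genes, and 17 of 19 with a median of -1.28 in shallow members. These estimates subtract the WT difference given above, which was positive for 18 of 20 genes of this list, so they do not add to it independently. The summed list stood at 8564 CPM in SARATg AA 1, at 11266 and 10431 CPM in SARATg vehicle and at 9865, 7210 and 11099 CPM in WT vehicle. No member passed the test. Ccl3 stood at 14.3 and 18.8 CPM in SARATg vehicle and 15.7 CPM in SARATg AA.

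Kidney neutrophils of vehicle-treated WT mice held less RNA of many NF-κB targets, cytokines and receptors than skin neutrophils of WT mice injected with PBS. With skin WT PBS 3 included, they also held less RNA of some general neutrophil genes. The 3 WT vehicle libraries were set against skin WT PBS 1 (20 neutrophils) and WT PBS 3 (306 neutrophils), since WT PBS 2 held 7. Tissue, injection route and the software release that counted the reads (3.0.2 in kidney, 3.1.0 and 4.0.0 in skin) cannot be told apart here. Over all kept cells, Zfyve9 stood at 25.9 CPM in skin WT PBS 1 and 620.2 CPM in skin WT PBS 3, beside 10.4 to 32.0 CPM in WT vehicle kidney. Xist stood at 684 and 0.202 CPM in these skin libraries, and at 0.155, 1410 and 0.502 CPM in WT vehicle kidney. The part of these differences between libraries was not tested. Of 8162 genes tested, 1766 passed the edgeR adjusted p of 0.05 (21.6%), 1052 higher in kidney (12.9%) and 714 lower (8.75%). With DESeq2-type size factors the split was 1522 higher and 576 lower, and the median of all genes moved by 0.42 on the log2 scale, with 18 of 22 NF-κB feedback genes still lower in kidney and their median at -2.75. In shallow members 602 of 3393 passed (17.7%), 177 higher (5.22%) and 425 lower (12.5%). The fits shared 439 called genes, 24.9% of those in all members and 72.9% of those in shallow members, and only 712 of the 1766 were tested in shallow members.

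The count depended on 1 library. Without skin WT PBS 3, which holds most of the skin cells and the high Zfyve9, 104 genes passed in all members, 0.939% of those tested lower in kidney and 0.329% higher, and 236 in shallow members, 6.07% lower and 1.89% higher. Of the 602 genes called in shallow members, 198 (32.9%) kept their call there. The skin arm was then a single library of 20 neutrophils, assumed to vary like the kidney libraries. Without kidney WT vehicle 3, 2793 genes passed.

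With skin WT PBS 3 included, some general neutrophil genes were called lower in kidney as well. Of the neutrophil identity list, which shares members such as Cxcl2 and Trem1 with the lists below, 19 of 35 genes were lower in kidney and 0 higher in all members (median -1.63, with 8.75% of all genes lower), and 9 of 34 were lower and 2 higher in shallow members (median -0.59, with 12.5% lower and 5.22% higher). Without skin WT PBS 3, which left 1 skin library, the median in all members was -1.18, beside 1.78 over all genes. In shallow members it was -0.16, beside 0.28, and 16 of 34 genes of the list had an estimate above 0, beside 1713 of 2964 genes.

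Of the NF-κB feedback and subunit list, 19 of 22 genes were lower in kidney and 0 higher, with a median log2 difference of -3.01 beside 0.30 over all genes, and 14 of 21 were lower in shallow members with a median of -2.32 beside 0.06. Without skin WT PBS 3 these were 4 of 22 (median -2.52 beside 1.78 over all genes) and 9 of 20 (median -2.17 beside 0.28), where 0.939% and 6.07% of all genes were called lower. Nfkbia stood at 333, 253 and 1310 CPM in kidney and at 4079 and 4327 CPM in skin, so that every kidney library lay below both skin libraries, with a log2 difference of -3.01 ± 0.74 (SE, edgeR adjusted p = 0.0027), and of -2.04 ± 0.47 in shallow members (edgeR adjusted p = 0.0086). Its call was lost without skin WT PBS 3, at -2.43 in all members (edgeR adjusted p = 0.16) and -1.67 in shallow members (edgeR adjusted p = 0.12), and it passed in 14 of 17 alternatives. Tnfaip3, which encodes the deubiquitinase A20, had log2 differences of -5.47 in all members and -4.49 in shallow members, and Nfkbiz, a nuclear IκB, of -4.05 and -2.94. Icam1, an adhesion molecule and classical NF-κB target, differed by -4.80 and -5.32, and Gadd45b, a stress protein, by -5.13 and -4.25. Nfkbiz, Icam1 and Gadd45b stayed past the threshold in all 17 alternatives run for them, and Tnfaip3 in 16.

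Cytokines and chemokines were lower in kidney for 10 of 24 tested genes in all members, with a median of -1.76, and for 11 of 20 in shallow members, with a median of -2.46, where 8.75% and 12.5% of all genes were called lower. None was higher. Without skin WT PBS 3, 5 of 22 and 9 of 18 were lower (0.939% and 6.07% of all genes), with medians of -1.16 and -1.99. Cxcl2, whose promoter is printed above, stood at 666, 788 and 1354 CPM in kidney and at 11960 and 10994 CPM in skin, so that the tissues did not overlap, with a log2 difference of -3.88 ± 0.73 (edgeR adjusted p = 1.2e-04) and of -2.42 ± 0.42 in shallow members (edgeR adjusted p = 0.0012). Ccl3 stood at 44.4, 17.3 and 63.9 CPM against 1163 and 1722 CPM, a log2 difference of -5.49 ± 0.75, and -4.87 ± 0.58 in shallow members. Tnf stood at 4.44, 4.54 and 16.5 CPM against 351 and 345.5 CPM, a log2 difference of -5.62 ± 0.69, and -4.24 ± 0.60 in shallow members. Ccl3 and Tnf passed in all 17 alternatives run. Il1a had 0 UMIs in the kidney neutrophils and was at least 131-fold higher in skin, with a floor of 3 counts over the kidney group.

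Il1b (chr2:129364570-129371139, GRCm38) passed in all members and not in shallow ones. It passed in 8 of 17 alternatives, and without skin WT PBS 3 its log2 difference in all members was -1.44 ± 0.41. It stood at 3908, 2807 and 3463 CPM in kidney and at 10871 and 10602 CPM in skin over all members, a log2 difference of -1.94 ± 0.68 (edgeR adjusted p = 0.037). In shallow members kidney libraries reached 14551, 11904 and 7399 CPM and skin libraries 10871 and 12382 CPM, so that the ranges overlapped, and the difference was -0.33 ± 0.42 (edgeR adjusted p = 0.63). Cxcl2 in the same shallow cells stood at 2002, 3420 and 2899 CPM in kidney and 11960 and 13117 CPM in skin. In these cells the difference passed the test for Cxcl2, Ccl3 and Tnf and not for Il1b. Whether the genes differed from each other in this respect was not tested. After thinning, 77.4% to 85.7% of WT vehicle neutrophils and 70.3% to 96.3% over all 9 kidney libraries showed a UMI of Il1b or Cxcl2.

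**Figure D4:**
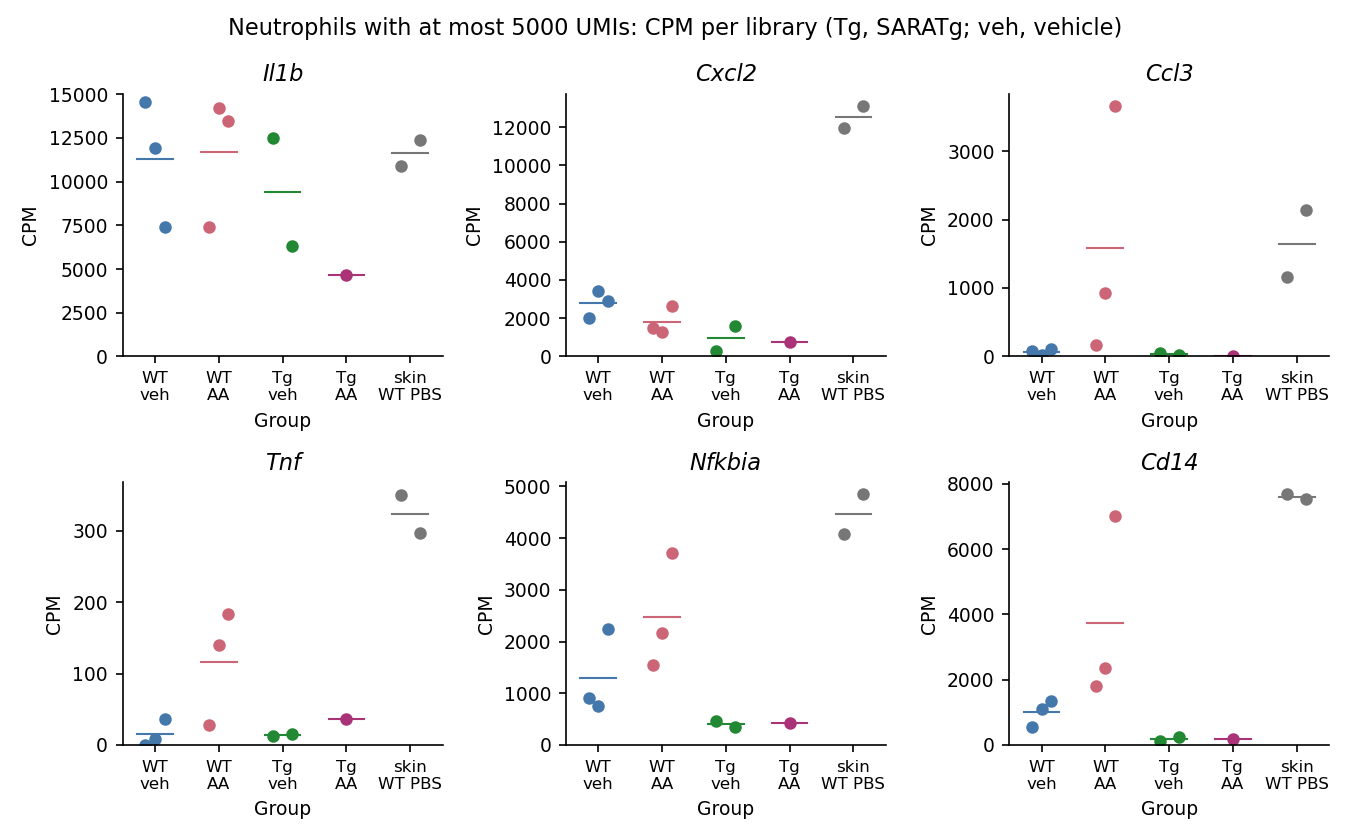
CPM of Il1b, Cxcl2, Ccl3, Tnf, Nfkbia and Cd14 in neutrophils with at most 5000 UMIs, 1 point per library with the group mean as a line, for the 4 kidney groups and skin WT PBS 1 and 3. WT AA 3 is drawn from 7 cells. Il1b overlapped between kidney (4654 to 14551) and skin (10871 and 12382), while every kidney library lay below both skin libraries for Cxcl2.

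Receptors and adhesion molecules were lower in kidney for 20 of 41 genes in all members (median -1.56) and 11 of 40 in shallow members (median -0.66), beside 8.75% and 12.5% of all genes. The neutrophil identity list was lower to a similar extent in these fits, for 19 of 35 (median -1.63) and 9 of 34 genes (median -0.59). Leaving out skin WT PBS 3, which left 1 skin library, gave receptor medians of -1.16 and -0.52, beside 1.78 and 0.28 over all genes. Cd14 stood at 133, 310 and 729 CPM in kidney and 7678 and 5765 CPM in skin, a log2 difference of -4.31 ± 0.76 (edgeR adjusted p = 5.6e-05), and -3.13 ± 0.44 in shallow members. It passed in 16 of 17 alternatives, and without skin WT PBS 3 the difference in all members was -4.04 ± 0.78. Ptafr, the receptor for platelet-activating factor, differed by -5.08 and -3.98 and passed in all 17 alternatives. Cxcr4, which holds neutrophils in the marrow, differed by -3.84 and -3.00.

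Stress and iron genes divided. Hmox1, which degrades haem, differed by -4.05 in all members and -3.26 in shallow members, and Txnrd1, a thioredoxin reductase chosen after its values were seen, by -3.73 and -4.50. Both passed in all 17 alternatives. Slc7a11 differed by -4.39 and -3.28, and the p53 target Cdkn1a by -3.82 and -3.72. Of the iron and redox list 5 of 16 genes were lower and 2 higher (Gpx1 and Prdx5) in all members, and 7 of 15 lower and the same 2 higher in shallow members. Of the heat shock list 3 of 11 were lower and 2 higher (Hspd1 and Hspe1) in all members, and 6 of 9 lower and 1 higher in shallow members. Of the survival list 8 of 19 were lower in all members and 6 of 17 in shallow members, and 0 higher. Over all genes the shares lower were 8.75% and 12.5% and the shares higher 12.9% and 5.22%. In all and shallow members the medians were -1.19 and -1.37 for iron and redox, -1.53 and -1.61 for heat shock, and -1.32 and -1.29 for survival. All genes had medians of 0.30 and 0.06. Without skin WT PBS 3, which left 1 skin library, the list medians were -0.11 and -0.17, -0.54 and -1.56, and -0.87 and -1.15. All genes then had medians of 1.78 and 0.28. Hspe1, a mitochondrial chaperone, was higher in kidney by 2.16 and 3.40 on the log2 scale, against Hspa1a at -4.56 and -3.85, whose reads can be shared with its near-identical copy Hspa1b.

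Immediate early genes were lower for 12 of 21 in all members (median -1.88), and in shallow members 7 of 19 were lower and 2 were higher (median -0.70), beside 8.75% of all genes lower in the former and 12.5% lower and 5.22% higher in the latter. Leaving out skin WT PBS 3, which left 1 skin library, gave medians of -1.42 and -0.62, beside 1.78 and 0.28 over all genes. Atf3, Fosl2, Fosb, Maff and Nr4a1 were among the genes called lower. The higher ones were Klf2, a quiescence-associated factor, at 1.75 ± 0.47 (edgeR adjusted p = 0.018), and Ier2. Klf2 was not past the threshold in all members, at 0.57 ± 0.66. Nr4a3, a nuclear receptor outside the list, passed in all 17 alternatives, at 4.44, 0.852 and 0 CPM in kidney against 388 and 344 CPM in skin.

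Granule genes had few calls. In all members 0 of 12 secondary and tertiary granule genes passed (median 0.92), and in shallow members Chil3, Hp and Mmp8 were higher in kidney (3 of 12, median 0.56, with 5.22% of all genes higher). Leaving out skin WT PBS 3 gave 0 of 12 and 2 of 11 higher (0.329% and 1.89% of all genes). Mmp8 stood at 415, 548 and 768 CPM in shallow kidney neutrophils and at 295 and 71.7 CPM in skin, a log2 difference of 1.82 ± 0.52 (edgeR adjusted p = 0.026), and of 1.09 ± 0.65 in all members (edgeR adjusted p = 0.25). It passed in 2 of 17 alternatives. Mmp9 and Lcn2 did not pass in any of the 17 alternatives. Camp ran from 1.10 to 4001 CPM among the 3 kidney libraries and stood at 55.4 and 5.33 CPM in skin, with a log2 difference of 6.72 ± 3.92 (edgeR adjusted p = 0.35).

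Interferon-stimulated and MHC class I genes had few calls. Of the interferon list 3 of 30 genes were lower in all members (Isg15, Isg20 and Slfn4) and 0 higher, and in shallow members 1 of 20 was higher (Slfn1) and 1 lower (Isg20). Of the MHC class I list 0 of 15 passed in all members, and in shallow members 2 of 12 were higher (the immunoproteasome subunits Psmb8 and Psmb9) and 1 lower (B2m). Over all genes 8.75% were lower and 12.9% higher in all members, and 12.5% lower and 5.22% higher in shallow members. In all and shallow members the medians were -0.57 and 0.08 for the interferon list and -0.51 and 0.27 for MHC class I. Without skin WT PBS 3, which left 1 skin library, they were 0.45 and 0.86, and 0.13 and 0.14. All genes then had medians of 1.78 and 0.28.

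Markers of other cells differed between the tissues as well. Of the tubule list, 12 of 13 tested genes were higher in kidney in all members and 7 of 9 in shallow members, with 1 lower, beside 12.9% and 5.22% of all genes higher. The tubule medians were 12.1 and 7.39 on the log2 scale. Leaving out skin WT PBS 3, which left 1 skin library, gave medians of 12.2 and 6.92, beside 1.78 and 0.28 over all genes. Miox, a proximal tubule enzyme with 0 UMIs in the skin neutrophils, was at least 698-fold higher in kidney with a floor of 3 counts over the skin group. The collagen gene Col1a1 stood at 4.44, 0.568 and 1.10 CPM in kidney and at 73.8 and 1996 CPM in skin. The part of such RNA in the other differences was not tested, and the macrophage list had 2 genes higher and 1 lower of 15 in all members and 1 higher and 2 lower of 9 in shallow members.

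**Figure D5:**
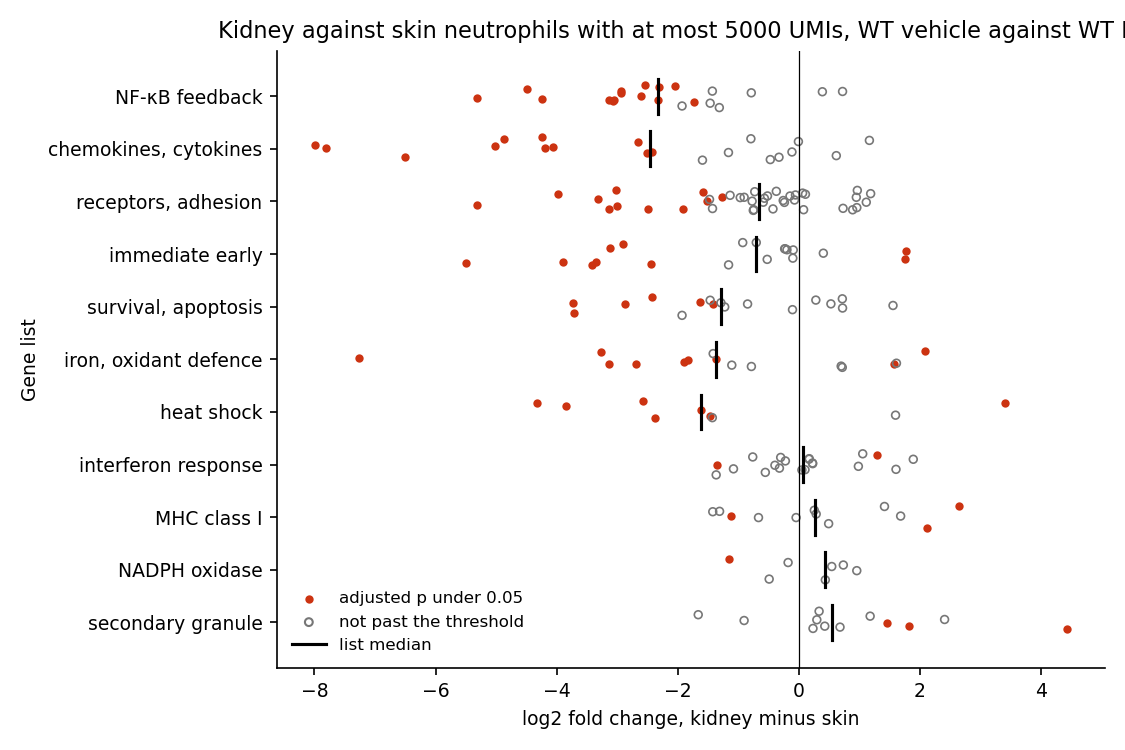
Log2 fold change, kidney minus skin, of each tested gene (points) by list in neutrophils with at most 5000 UMIs from WT mice given vehicle (kidney) or PBS (skin), with filled points past the edgeR adjusted p of 0.05 and a black line at the list median. The NF-κB list had 14 of 21 genes lower and a median of -2.32, and the secondary granule list had 10 of 12 estimates above 0, 3 of them past the threshold, with a median of 0.56.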

How the data were processed

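Cells of PDGFRb+GFP+ sorts from mouse kidney and skin were captured with a droplet 3′ chemistry. The deposited files hold raw UMI counts per gene and cell barcode, made by the authors with Cell Ranger (3.0.2 per the file headers for kidney, 3.1.0 or 4.0.0 for skin) on mm10, and the submitters' processing notes also name Seurat 2.3.4. Kidney total UMIs ran from 28660151 to 137093834 per library, and intervals on shares rest on counts of cells. No doublet caller was run. An alternative left out cells with 2 or more UMIs of lymphocyte, of tubule or of endothelial and stromal markers (555 of 1496 remained). Macrophage, eosinophil, basophil, mast cell, red cell and platelet markers were not part of this filter.

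Counts of members were summed per library (at least 10 cells) and tested with edgeR 4.0.16 (quasi-likelihood, robust, TMM, filterByExpr, Benjamini-Hochberg adjusted p under 0.05) in R 4.3.3, with one fit over the 4 kidney groups and one over WT kidney and skin, where rule genes were not tested and 30406 shared gene IDs entered. DESeq2 1.42.0 was the alternative. For shares, library labels were permuted exactly (scipy 1.17.1), and thinning to 500 UMIs per cell left out 0 members. Tested on simulated data, the AA fit recovered 51% of 4-fold and 96% of 16-fold changes with 10 false calls among 7581 genes, and the kidney against skin fit 29% and 93% with 5 among 8167. The changes were planted only in genes above the median abundance, and counts were drawn from a profile pooled over libraries with the estimated spread. Recovery in less abundant genes was not tested.

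The members and gene lists were chosen with earlier results of these data known. Named genes were members of those lists, the 20 most abundant genes, the 15 with the largest ratio over other kidney cells, and up to 12 per direction among those called in a comparison. Exact intervals are Clopper-Pearson at 95%.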

Additional observations from a re-analysis of the deposited data

How the results depend on the processing

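Alternatives that set a UMI limit per cell, left out libraries whose Zfyve9 level goes against the label, left out WT vehicle 1 and 2 together or left out a library from the share of leukocytes were chosen after seeing the data. The cause of the changes below was not tested. For AA against vehicle, called genes numbered 0 in the reported fit, 2 with DESeq2, 139 with no filter on low counts and 3 without cells holding 2 or more UMIs of other-cell markers. The last setting, the marker filter, used lymphocyte, tubule, endothelial and stromal markers and no macrophage markers. It kept 5 kidney libraries with 10 cells or more, among them 1 WT AA and 1 SARATg vehicle library. For SARATg against WT these settings gave 0, 3, 108 and 12, a replicate block gave 2, shallow members without the libraries at odds with their label gave 1, and leaving out 1 library gave 0 to 7 (7 without SARATg vehicle 1). For the interaction no filter gave 50, the replicate block 2 and the marker filter 1, and it could not be fitted without SARATg AA 1. For kidney against skin (1766), the replicate block gave 701, a stricter cell filter 723, the marker filter 103, members with at most 5000 UMIs 602, with at most 4000 UMIs 575, with at most 5000 UMIs and without skin WT PBS 3 236, and leaving out 1 library 104 to 2793 (2793 without kidney WT vehicle 3). To look for pairing, each library's deviation from its group mean (log CPM) was correlated over genes with that of other libraries. For same-numbered WT vehicle and AA libraries these deviations correlated at 0.0599, 0.468 and 0.272. The deviations of WT vehicle 1 correlated more with those of AA 3 (0.132) than with those of AA 1. Not every pair passed 0.1 and the labels name no shared batch, so the samples were treated as unpaired.

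The share difference SARATg minus WT was near 0, at -0.0203 points, among leukocytes (cells with a Ptprc UMI and all neutrophils) and ran from -1.32 (without SARATg vehicle 2) to 6.13 (without SARATg vehicle 1) when 1 library was left out, and AA minus vehicle ran from -1.81 to -0.291. Among leukocytes SARATg minus WT was -6.92 without SARATg vehicle 2, -2.82 without WT vehicle 1 and -2.45 without WT vehicle 3, and 6.88 and 5.21 without SARATg vehicle 1 and WT vehicle 2. The thinned share with an interferon-stimulated gene (Isg15, Ifit1, Ifit3 or Rsad2) differed by 1.65 points and ran from -2.42 (without WT AA 3) to 6.44 (without WT AA 2), with -1.15 without WT vehicle 2.

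Of the named genes, Mmp9 in kidney against skin turned to 0.42 with the marker filter, 0.016 at 5000 UMIs and 0.092 at 4000 UMIs. For AA, Cxcl2 turned to -1.96, -1.08 and -1.08 under the same settings, to -1.28 at 5000 UMIs without the libraries at odds with their label, to -0.28 without WT vehicle 1 and 2, and ran from -0.18 (without WT AA 3; -0.015 without WT vehicle 1) to 0.65 (without WT vehicle 3). Il1b turned to -0.83, -0.16 and -0.17 under the same filters, and Camp to 7.79 without WT vehicle 1 and 2. None of these AA values had passed the test. In all, the 35 genes followed for kidney against skin gave 521 values on the same side of the threshold and in the same direction, 51 that lost the call, 14 that gained it and 3 that turned.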
